A study of Mus musculus with 6 samples.

Results

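The monocyte genes F13a1, Ccr2, Cx3cr1, Csf1r, Ly6c1, Ms4a6c, Cd14 and Irf8 were followed in whole bone marrow a day after c-Jun was switched on. Members were all probe sets to which the authors' deposited table gives exactly 1 of these 8 symbols. That rule found 14 of the 45101 probe sets on the array. They cover 7 of the 8 genes, among 20678 genes with such a probe set. Ly6c1 had none, because its probe set also carries the symbol Ly6c2. The induced group was 3 arrays of c-Jun inducible mice given doxycycline, the inducing antibiotic, in the drinking water at 1 mg/ml for 24 h (day 1). The control group was 3 arrays of the same kind of mice before induction, labelled as without doxycycline (day 0). Each array received marrow RNA that had been pooled from 3 animals, all 8 weeks of age, and the labels describe the pools as biological replicates. The promoter that drives the inducible c-Jun, the strain and the sex are not given in the sources used here. No array of mice given doxycycline without c-Jun induction was analysed here, so effects of c-Jun, of doxycycline and of the sampling day cannot be told apart.

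Monocytes arise in the marrow from progenitors that need the growth factor receptor encoded by Csf1r and the transcription factor encoded by Irf8. Classical mouse monocytes carry the Ly6C surface protein and the chemokine receptor CCR2, which they need to leave the marrow, while patrolling monocytes carry CX3CR1, the receptor of fractalkine. CD14 hands bacterial lipopolysaccharide to the Toll-like receptor TLR4, and MS4A6C is a membrane protein of the MS4A family. F13a1 encodes the A subunit of coagulation factor XIII, a transglutaminase that cross-links fibrin and is made by monocytes, macrophages and megakaryocytes.

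The sequences upstream of the 3 genes whose brightest probe set read lower in every induced than in any control array are shown first, since their values lay in the same direction. Of the 8 genes, 6 had at least 1 window in the table used. Each is a RefSeq window on GRCm38.p6 from 250 bases before to 50 bases after an annotated gene start, written 5′ to 3′ on the strand of the gene. Capitals mark matches to any of 6 motifs searched on both strands. F13a1 has 2 annotated starts, with windows at chr13:37050195-37050494 and chr13:37049164-37049463 on the minus strand. Irf8 also has 2, and the upstream window is shown. The Ms4a6c window is chr19:11469118-11469417 and the Irf8 window is chr8:120736108-120736407, both on the plus strand.
F13a1, outer start: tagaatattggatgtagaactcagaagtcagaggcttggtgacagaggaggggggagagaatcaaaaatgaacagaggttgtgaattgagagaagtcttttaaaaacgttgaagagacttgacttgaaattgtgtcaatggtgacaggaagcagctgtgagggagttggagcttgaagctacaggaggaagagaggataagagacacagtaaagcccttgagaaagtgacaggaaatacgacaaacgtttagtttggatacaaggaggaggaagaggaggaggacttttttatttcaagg
F13a1, inner start: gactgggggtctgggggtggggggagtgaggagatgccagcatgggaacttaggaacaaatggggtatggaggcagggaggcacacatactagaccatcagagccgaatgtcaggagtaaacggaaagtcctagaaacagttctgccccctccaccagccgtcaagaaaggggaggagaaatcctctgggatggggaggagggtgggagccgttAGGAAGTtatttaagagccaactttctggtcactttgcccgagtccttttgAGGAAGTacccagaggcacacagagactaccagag
Ms4a6c: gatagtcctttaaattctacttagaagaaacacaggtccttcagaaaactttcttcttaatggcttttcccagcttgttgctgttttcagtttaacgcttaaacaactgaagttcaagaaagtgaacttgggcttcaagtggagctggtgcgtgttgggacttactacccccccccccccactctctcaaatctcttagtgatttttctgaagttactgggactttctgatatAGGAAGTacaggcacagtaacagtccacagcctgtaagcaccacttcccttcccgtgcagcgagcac
Irf8: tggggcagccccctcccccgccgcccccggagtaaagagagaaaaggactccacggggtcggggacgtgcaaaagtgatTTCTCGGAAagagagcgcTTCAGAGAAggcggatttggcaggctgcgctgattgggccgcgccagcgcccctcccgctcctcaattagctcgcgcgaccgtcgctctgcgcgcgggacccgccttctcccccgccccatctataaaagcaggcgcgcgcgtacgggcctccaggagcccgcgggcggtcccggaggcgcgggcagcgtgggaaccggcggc
The inner F13a1 window held 2 copies of AGGAAGT, the letters used here for the site of the myeloid factor PU.1, and the Ms4a6c window held 1. A Ly6c1 window, not shown, also held 1, and the probe set shared by Ly6c1 and Ly6c2 was not called. Of the 32841 windows of that length in the RefSeq table, 9.35% held that motif. The Irf8 window held 2 matches to TTCNNNGAA, the palindrome read by STAT factors, which 8.30% of all windows held. The AP-1 site TGANTCA, to which c-Jun binds with its partners, was not in any of the 9 windows scanned for F13a1, Ccr2, Cx3cr1, Ly6c1, Ms4a6c and Irf8, and was in 7.81% of all windows. Cd14 and Csf1r, the genes with a probe set called higher, had no window scanned. The absence therefore covers no gene that rose, and it was not tested against that share. The other motifs, with no match in the windows shown, were TGACGTCA for CREB and ATF factors (1.79% of all windows), the interferon-stimulated response element (3.44%) and TTGCNNAA for C/EBP (10.8%). A match is a run of letters and not a measured binding site, and no binding was measured in this study.

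Among the monocyte genes, F13a1 and Ms4a6c fell in induced marrow, Cd14 and a single probe set of Csf1r rose, and no probe set of Ccr2, Cx3cr1 or Irf8 passed the test. Values below are the deposited signals in arbitrary units. The test was limma on log2(signal + 16), induced minus control, with adjustment over 31526 tested probe sets, and a call is an adjusted p under 0.05. All 14 member probe sets passed the filter on low values, and 2 were called higher and 2 lower. Over all tested probe sets 4.19% were called higher and 1.35% lower, 5.54% in either direction. Of the 3 members' probe sets with a mean signal over 10, those of F13a1, Ccr2 and Csf1r, 1 was called higher and 1 lower. Among all 2868 probe sets this bright the shares were 32.7% higher and 8.26% lower, 40.9% in either direction, so a call there was common. The groups did not overlap in 5 of the 14, against 18.0% of all tested probe sets, and in 2 of the 3 bright ones, against 56.2% of the bright probe sets. The median log2 change of (signal + 16) was -0.02 over the 14 and -0.0045 over all tested. Members and the gene lists below were chosen with earlier results of these data known. Shares set beside their counts are therefore descriptive and no test.

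Arrays differed in ways that concern every gene here. Between 2870 and 3393 probe sets had a signal over 10 in induced arrays, against 2377 to 2800 in control arrays. Signals of 0 numbered 346 on control 2 and between 4653 and 7818 on every other array. The Gapdh control read at its 5' end 25.8% to 28.9% of the 3' signal in induced arrays and 12.5% to 22.7% in control arrays, and its part in the results below was not tested. The bright probe sets had a median log2 change of 0.24, which quantile normalization brought to 0.06, so a bright gene's change is best read against that median. After that normalization F13a1 stood at -1.20. No signal of the 27 probe sets for bacterial transcripts was over 2, which was taken as the background after the data were seen. Defining marrow genes were present, with the neutrophil gene S100a8 at 3413.1 to 3996.3 in induced arrays and 2690.2 to 3061.7 in control arrays.

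**Figure D1:**
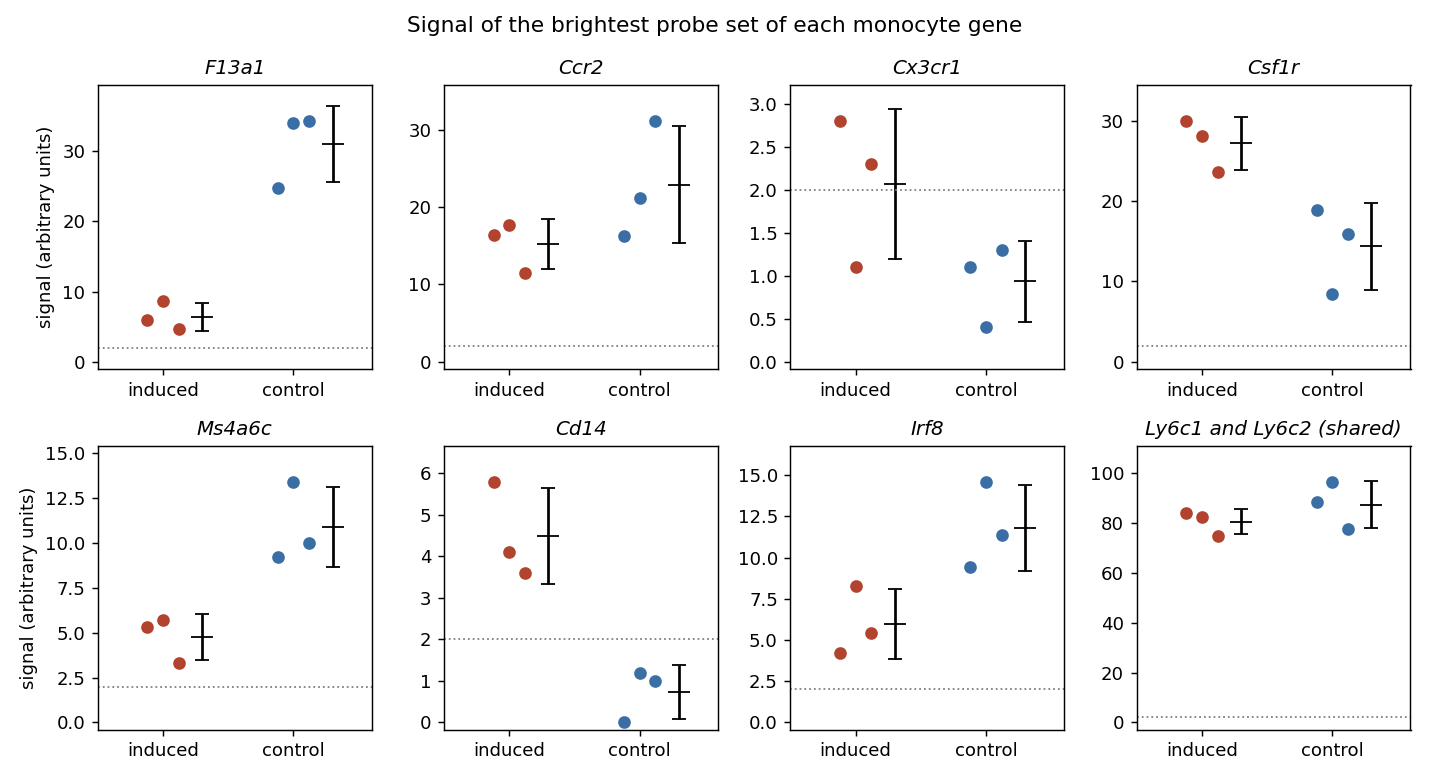
Deposited signal (arbitrary units, linear axis) of the brightest probe set of each gene, with a point for each induced (left) and control (right) array, the mean and SD as a black bar, and the background of 2 as a dotted line. The last panel is the probe set shared by Ly6c1 and Ly6c2. F13a1 lies at 4.7 to 8.6 in induced arrays, all below the control arrays at 24.7 to 34.3.

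F13a1 gave the largest difference of the members. Its single probe set read 5.9, 8.6 and 4.7 in induced arrays 1, 2 and 3, against 24.7, 34.0 and 34.3 in control arrays 1, 2 and 3. Every induced array lay below every control array, and all 6 arrays were above background. The means were 6.4 ± 2.0 in induced and 31.0 ± 5.46 in control arrays (SD, n = 3 each), a control over induced ratio of 4.84. On the log2(signal + 16) scale the change was -1.07 with a standard error of 0.09 (limma, adjusted p = 2.70e-04, 95% interval -1.28 to -0.86). By size of fall on that scale the probe set ranked 39 among all tested probe sets. F13a1 fell with any 1 array left out (limma, adjusted p between 2.67e-04 and 0.00479). In the authors' deposited table its ratio of control over induced was 6.90 (unadjusted p-value 6.10e-04). In whole marrow, fewer cells of a type and less RNA per cell cannot be told apart.

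Of the surface proteins, Ms4a6c fell and the Ly6C probe set was not called. Ms4a6c read 5.3, 5.7 and 3.3 in induced arrays, against 9.2, 13.4 and 10.0 in control arrays. The groups did not overlap, and the means were 4.77 ± 1.29 in induced and 10.9 ± 2.23 in control arrays (SD, n = 3 each). Ms4a6c fell by 0.37 on the log2(signal + 16) scale with a standard error of 0.07 (limma, adjusted p = 0.0163). The call was lost without control 2 (adjusted p = 0.0511) or induced 3 (adjusted p = 0.0705). The probe set shared by Ly6c1 and Ly6c2, which lies outside the rule and cannot tell the genes apart, read 84.2, 82.6 and 74.9 in induced arrays, against 88.3, 96.6 and 77.5 in control arrays. These groups overlapped, and the log2 change of -0.10 had a 95% interval of -0.26 to 0.07 (limma, adjusted p = 0.673).

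Cd14, the lipopolysaccharide co-receptor, was at background in controls and above it after induction. Its single probe set read 5.8, 4.1 and 3.6 in induced arrays, against 0.0, 1.2 and 1.0 in control arrays. All induced arrays were above the background of 2 and all control arrays below it, which puts the induced mean at least 2.25-fold higher. The log2 change of (signal + 16) was 0.29 with a standard error of 0.06 (limma, adjusted p = 0.0179). The rise was not called without induced 1 (adjusted p = 0.0638), control 1 (0.0699) or control 3 (0.0557). Signals this near background leave the size of the rise poorly measured. By the authors' deposited table, turned round to induced over control, the ratio for Cd14 was 2.78 (unadjusted p-value 0.0202).

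Csf1r, the receptor of the macrophage growth factors CSF1 and interleukin 34, was read by 3 probe sets that differed in their outcome. The brightest read 30, 28.1 and 23.6 in induced arrays, against 18.9, 8.4 and 15.9 in control arrays. The groups did not overlap, and control 2 lay well below the other controls. The log2 change of (signal + 16) was 0.52 with a standard error of 0.12 (limma, adjusted p = 0.0356). This call held without control 1 and was lost without any other array (adjusted p = 0.0504 without control 2, and up to 0.105 without induced 1). It was also lost after quantile normalization (adjusted p = 0.192), after scaling to 1 trimmed mean (0.182) and after scaling to 1 median of bright probe sets (0.172). The second probe set read 6.2, 6.6 and 7.8 in induced arrays, inside the 3.3 to 8.0 of the control arrays. The third averaged 2.57 ± 1.42 in induced and 2.87 ± 0.60 in control arrays (SD, n = 3 each). Neither was called (limma, adjusted p = 0.721 and 0.926), so the rise rests on a single probe set.

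The chemokine receptors gave no call. The brightest of 4 Ccr2 probe sets read 16.4, 17.6 and 11.5 in induced arrays, against 16.3, 21.2 and 31.1 in control arrays. The groups overlapped by the lowest control, and the log2 change of -0.31 had a 95% interval of -0.59 to -0.02 (limma, adjusted p = 0.308). After quantile normalization the Ccr2 probe set was called lower, with a log2 change of -0.47 (adjusted p = 0.0238), and likewise after scaling to 1 median of bright probe sets (-0.45, adjusted p = 0.0340). The other 3 Ccr2 probe sets had no signal over 4.1 on any array, with induced means of 0.77 to 2.67 and control means of 0.90 to 2.83. The 2 probe sets of Cx3cr1, the fractalkine receptor, reached at most 2.8 in induced and 1.6 in control arrays, and neither was called (limma, adjusted p = 0.543 and 0.762). Of the Cx3cr1 signals only those of 2 induced arrays in the brighter probe set were above background.

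Irf8, the transcription factor of monocyte and dendritic cell progenitors, was not called, with an adjusted p close to the threshold. Its brighter probe set read 4.2, 8.3 and 5.4 in induced arrays, against 9.4, 14.6 and 11.4 in control arrays. The groups did not overlap, and the means were 5.97 ± 2.11 in induced and 11.8 ± 2.62 in control arrays (SD, n = 3 each). The log2 change of (signal + 16) was -0.34 with a standard error of 0.09 (limma, adjusted p = 0.0543, 95% interval -0.53 to -0.15). The same probe set was called lower after quantile normalization (adjusted p = 0.00915), without induced 2 (0.0245) and without control 1 (0.0439). In the authors' deposited table its control over induced ratio was 2.98. The dimmer Irf8 probe set read 0.2 to 2.7 in induced and 1.2 to 3.4 in control arrays and was not called (limma, adjusted p = 0.847).

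**Figure D2:**
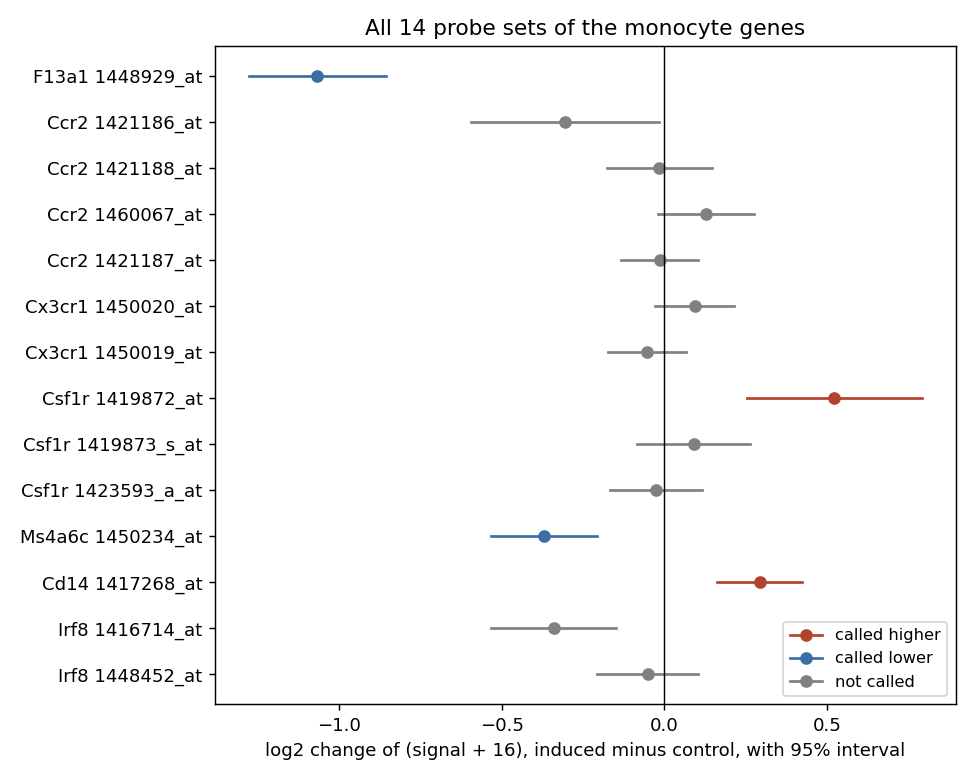
Log2 change of (signal + 16), induced minus control, for all 14 probe sets, with points for the limma estimate and lines for its 95% interval; colour gives the call at an adjusted p under 0.05. F13a1 at -1.07 stands apart to the left, and the probe sets of Ccr2, Csf1r and Irf8 other than the brightest lie between -0.05 and 0.13.

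The authors' deposited table can be set beside these values. A second deposited table lists differences of 2-fold or more, 2.54% of the array, and holds F13a1, Ms4a6c, Cd14 and the brighter Irf8 probe set, 4 of the 14. Of these 3 were lower in induced arrays, against 0.998% of the array. By the authors' deposited table, an unadjusted p-value under 0.05 was held by 7 of the 14, against 12.5% of all probe sets. Its ratio of control over induced was 2.36 for Ms4a6c (unadjusted p-value 0.00233). For the brightest Csf1r probe set the authors' deposited table gave 0.538 (unadjusted p-value 0.113). These values come from the same arrays. Because the members were chosen with earlier results of these data known, the shares beside these counts are no test of the members.

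Further genes of classical monocytes also moved in both directions. In a list of 34 such genes 32 had a probe set, each gene by its brightest, and 6 rose and 4 fell. Over all 16239 genes tested this way, 5.14% were called higher and 1.82% lower. Of the list's genes 20 had a mean signal over 10, and 6 of these rose and 3 fell. Among all 1913 genes this bright 30.1% were called higher and 9.46% lower, so the share of the list that rose was near that of bright genes. The list's median log2 change was 0.01, against -0.0045 over all tested probe sets and 0.24 over those with a mean signal over 10. With control 2, control 3, induced 1 or induced 2 left out, 2 genes of the list were called lower.

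Of the list's genes that fell, Fn1 encodes fibronectin, a matrix protein that factor XIII cross-links to fibrin. Fn1 read 1.5, 2.1 and 2.0 in induced arrays, against 15.4, 15.3 and 17.9 in control arrays. It fell by 0.85 on the log2(signal + 16) scale with a standard error of 0.05 (limma, adjusted p = 3.93e-05). Psap, the precursor of lysosomal saposins, averaged 60.5 ± 3.10 in induced and 81.5 ± 7.79 in control arrays (limma, adjusted p = 0.0142). Plac8 averaged 43.8 ± 7.41 and Pld4, a lysosomal exonuclease, 9.3 ± 2.0 in induced arrays, against 66.3 ± 7.84 and 14.9 ± 1.44 in control arrays (SD, n = 3 each; limma, adjusted p = 0.0226 and 0.0393). Pld4 kept its call without induced 2 and lost it without any other array (up to 0.142 without control 2). Plac8 lost its call without induced 1 (0.0699), induced 2 (0.0698), control 2 (0.115) or control 3 (0.0983), and Psap without induced 2 (0.0512). With an intensity trend in limma, Psap (adjusted p = 0.450), Plac8 (0.201) and Pld4 (0.145) were not called. Over 18 alternatives of processing or arrays Fn1 was called in 18, Psap in 11, Plac8 in 8 and Pld4 in 7.

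Neither the list's genes that fell nor those that rose are made by monocytes alone. Ccl9, a chemokine, read 110.2, 91.8 and 97.5 in induced arrays, against 24.8, 29.6 and 28.1 in control arrays, a ratio of 3.63 (limma, adjusted p = 1.54e-05). Tyrobp and Fcer1g encode signalling adaptors of immune receptors. Tyrobp averaged 144.2 ± 18.5 in induced and 73.6 ± 5.57 in control arrays (limma, adjusted p = 6.21e-04). Fcer1g averaged 81.6 ± 5.33 in induced and 51.8 ± 9.77 in control arrays (adjusted p = 0.00946) and lost its call without control 2 (0.0566). The lysosomal proteases Ctss and Ctsc and the lysosomal membrane protein gene Cd68 rose 1.73-fold, 2.80-fold and 2.69-fold as ratios of mean signals (limma, adjusted p = 6.33e-04, 0.00688 and 0.00208). The abundant lysozyme gene Lyz2 read 430.7 to 534.9 in induced and 405.6 to 472.8 in control arrays, and Chil3, a chitinase-like protein, read 238.6 to 267.8 in induced and 247.1 to 302.6 in control arrays. Neither was called (limma, adjusted p = 0.738 and 0.606).

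**Figure D3:**
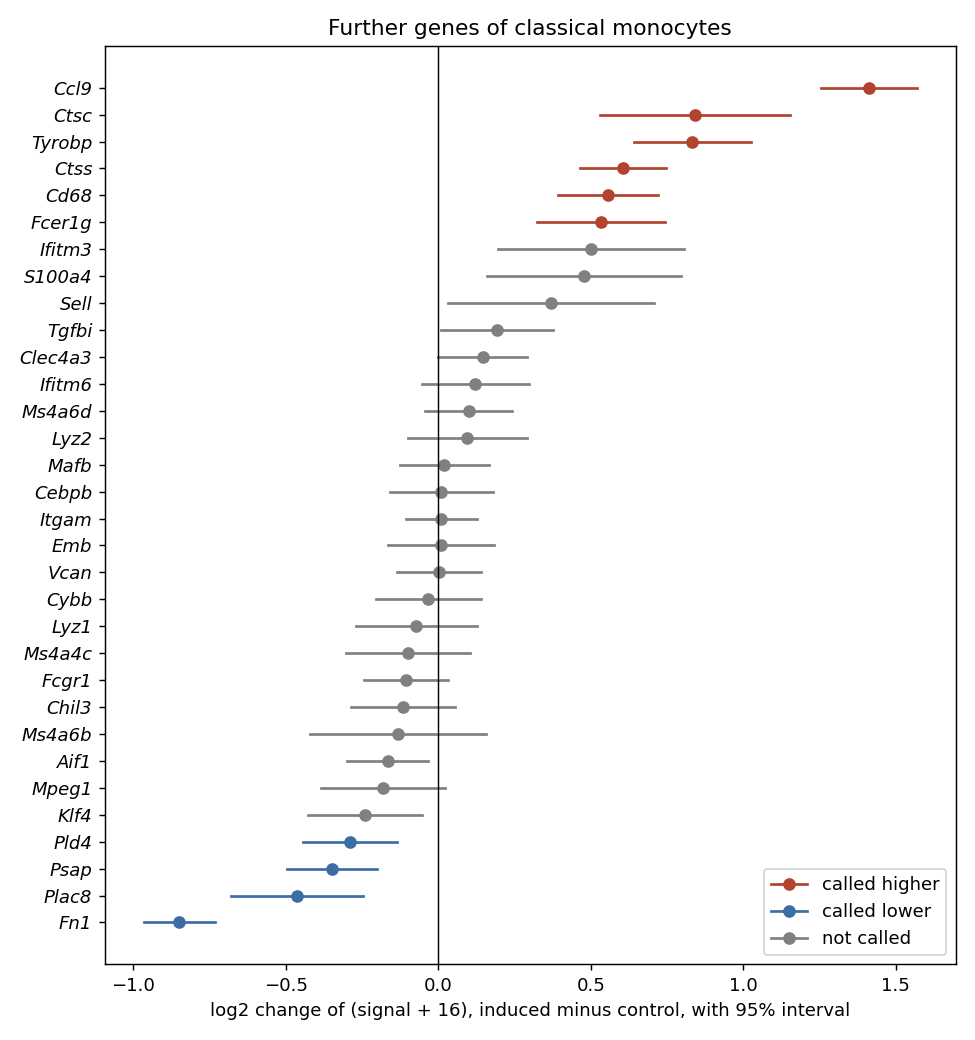
Log2 change of (signal + 16), induced minus control, of the 32 further classical monocyte genes with a probe set, ordered by size, with points for the limma estimate and lines for its 95% interval; colour gives the call. Fn1 lies lowest at -0.85 and Ccl9 highest at 1.41.

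Other lists bearing on monocytes had median log2 changes of 0.02 for nonclassical monocyte genes and 0.03 for progenitor genes. The median was 0.06 for ligands, partners and related genes of the members. Among genes of patrolling, nonclassical monocytes 14 were tested, and 0 rose and 0 fell in limma, against 5.14% and 1.82% of all genes tested. At an unadjusted limma p under 0.05 there were 6 of the 14, against 17.1% of all genes tested. Of 16 factors and receptors of monocyte and dendritic progenitors 1 rose, Id2, an inhibitor of DNA-binding factors. Id2 read 33.1, 24.0 and 24.7 in induced arrays, against 4.7, 12.7 and 12.7 in control arrays (limma, adjusted p = 0.00917). Spi1, which encodes PU.1, averaged 4.53 ± 1.81 in induced and 4.10 ± 1.08 in control arrays (SD, n = 3 each) and was not called (limma, adjusted p = 0.927).

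The list of ligands, partners and related genes of the members gave 3 rises and 0 falls among 16 tested. Over all genes tested by their brightest probe set, 5.14% were called higher and 1.82% lower. No tested gene for a ligand of a member was called. Of the 3 that rose, only Tlr4 encodes a direct partner of a member. Tgm2, a transglutaminase of the same enzyme family as F13a1, read 30, 19 and 27.7 in induced arrays, against 5.4, 5.3 and 5.6 in control arrays. Tgm2 therefore lay higher in every induced array (limma, adjusted p = 4.68e-04), opposite in direction to F13a1. Cxcl12, the chemokine that holds leukocytes in the marrow, read 11.4, 11.3 and 10.5 in induced arrays, against 2.8, 6.7 and 2.7 in control arrays (limma, adjusted p = 0.00906). Tlr4, the receptor that CD14 serves, read 3.5, 4.1 and 2.7 in induced arrays, against 1.0, 1.0 and 0.0 in control arrays. Its rise (limma, adjusted p = 0.0403) was lost without any 1 array (adjusted p between 0.0696 and 0.145). The CCR2 ligand gene Ccl2 and the CX3CR1 ligand gene Cx3cl1 had no signal over 2.7 on any array.

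Markers of other marrow cells were called in every list but the endothelial one, and their part in the results was not tested. No gene of any list was at 0 on all arrays. Their median log2 changes were 0.05 for megakaryocyte, 0.08 for macrophage, -0.15 for neutrophil, 0.10 for B cell, -0.02 for endothelial, 0.05 for T and NK cell, -0.91 for erythroid and 0.14 for eosinophil and basophil markers. Over all 16239 genes tested by their brightest probe set, 5.14% were called higher and 1.82% lower. Among the 1913 with a mean signal over 10 these shares were 30.1% and 9.46%. Of markers this bright, 4 of 4 megakaryocyte, 3 of 4 macrophage and 3 of 7 B cell genes rose. So did 2 of 13 neutrophil genes, and 3 of 3 in the eosinophil and basophil list, all of them eosinophil genes (Ear1, Prg2 and Epx). Meanwhile 5 of 13 neutrophil and 7 of 7 erythroid genes fell. No endothelial or T and NK cell marker was this bright. Megakaryocytes and platelets also contain factor XIII A. Of 18 megakaryocyte and platelet markers tested 5 rose and 0 fell, and their bearing on F13a1 was not tested. The summed signal of that list was 122.7 to 168.4 in induced and 38.3 to 64.4 in control arrays, and 5 of its 19 genes were at or under background on all arrays. Plek, Cd9 and Thbs1 rose, with Plek at 41.9 to 51.9 in induced and 7.6 to 17.0 in control arrays, and so did Pf4 and Ppbp. Itga2b, Gp1ba, Gp1bb and Gp9 of that list were not called. Each of these 4 averaged below the background of 2 in both groups, so the summed signal says little about them. Of 16 resident macrophage markers, which bear on Csf1r, 4 rose and 0 fell, with a summed signal of 111.4 to 147.7 in induced and 57.7 to 83.5 in control arrays. C1qb, a complement subunit, read 27.4, 22.3 and 24.3 in induced arrays, against 2.6, 6.6 and 5.4 in control arrays, and Hmox1 and Vcam1 also rose. C1qa and C1qc, for the other chains of that complement protein, were not called (limma, adjusted p = 0.790 and 0.451). Vcam1 lost its call without induced 1, induced 3, control 1 or control 2 (adjusted p between 0.0846 and 0.104).

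Neutrophils carry CD14 and some Ly6C, and 3 of 16 neutrophil markers rose and 5 fell, with a summed signal of 10514.3 to 12296.5 in induced and 9004.2 to 10354.4 in control arrays. The falls included the primary granule genes Mpo and Prtn3 and the rises Il1r2. B cells express Irf8, and 3 of 11 B cell markers tested, Cd74, Ighm and Cd79b, rose and 0 fell, with a summed signal of 246.3 to 308.4 in induced and 146.3 to 151.3 in control arrays. Endothelial cells express Ly6c1, and 0 of 11 endothelial markers tested were called in limma, with 1 at an unadjusted p under 0.05. Of the 12 with a probe set 7 were at or under background on all arrays, Cdh5 among them, and the list summed to 14 to 20.6 in induced and 10.6 to 19.5 in control arrays. T and NK cell markers had 1 rise, Ccl5, among 12, with a summed signal of 30.9 to 34.7 in induced and 15.6 to 28.1 in control arrays. The call of Ccl5 was lost without any 1 array (adjusted p between 0.0520 and 0.171). Erythroid markers fell in 9 of 10 tested, Tfrc, Ermap and Slc4a1 with the smallest p, and their summed signal was 278.5 to 351.7 in induced and 1187.8 to 1376.7 in control arrays. Eosinophil and basophil markers rose in 4 of 9, the eosinophil genes Ear1, Prg2, Epx and Prg3. The basophil gene Mcpt8 fell, averaging 2.13 in induced and 13.7 in control arrays. Cpa3, Ms4a2 and Cd200r3, of basophils and mast cells, were not called. That list had a summed signal of 228.6 to 287.7 in induced and 37.6 to 52.9 in control arrays, which therefore does not stand for basophil genes.

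Likeness to F13a1 over the 6 arrays was computed for the 2275 genes whose brightest probe set had a mean signal over 10 in induced or control arrays. Mpp1, Slc6a9, Prpf4b, Dcaf6 and Heca were the 5 of these with the highest Pearson correlation of log2(signal + 16) with F13a1, between 0.992 and 0.997. The arrays fall into 2 groups, so the difference between the groups enters this likeness. Slc6a9, a glycine transporter, read 1.4, 2 and 0.1 in induced arrays, against 27.3, 34.8 and 36.0 in control arrays. All its induced arrays were at or under background, which puts its mean at least 16.4-fold lower. Mpp1, a membrane scaffold protein, read 10.4 to 11.2 in induced and 13.6 to 14.6 in control arrays and was not called (limma, adjusted p = 0.0621).

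**Figure D4:**
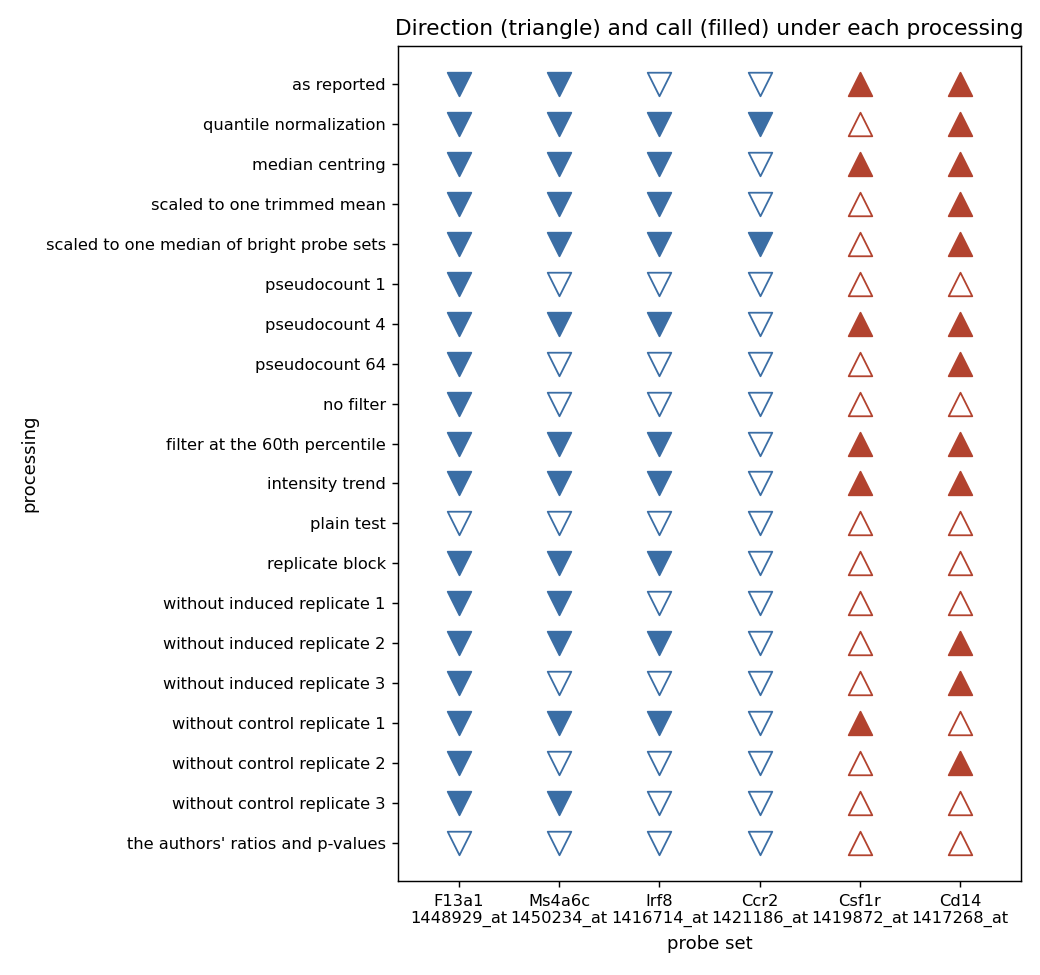
Direction and call of the 6 leading probe sets under each processing, with a triangle pointing up for a positive and down for a negative log2 change of induced minus control, filled where the adjusted p was under 0.05. F13a1 is filled in 17 of the 19 alternatives, Ms4a6c in 12, Cd14 in 11, Irf8 in 10, Csf1r in 5 and Ccr2 in 2, and no triangle turns.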

How the data were processed

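Bone marrow RNA was measured on 6 arrays, 3 induced and 3 control. Per the submitters' processing notes the authors' deposited signal intensity values come from MAS5, whose version and scaling target the sources used here do not give. Per the file headers, the authors' deposited ANOVA table holds, for each probe set, a p-value with no adjustment, a linear ratio of control over induced, a signed fold and an F score.

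Signals were used as deposited, as log2(signal + 16), leaving out 64 control probe sets and those at or below the 30th percentile of the mean. Limma 3.58.1 in R 4.3.3 tested 31526 probe sets with Benjamini-Hochberg adjustment. P-values rest on the spread between the 3 pools of each group, which limma draws toward a spread shared by all tested probe sets. The number of arrays limits the precision. The large pseudocount makes changes of dim genes read small, so signals are given first. List symbols were updated through RefSeq synonyms. Named were all member probe sets and called genes of the monocyte, progenitor and partner lists. Also named were the 3 smallest p of each other list and 5 genes like F13a1. Other genes named (S100a8, Lyz2, Chil3, Spi1, Ccl2, Cx3cl1, Cdh5, C1qa, C1qc) were chosen after their values were seen. The same holds for Pf4, Ppbp, Itga2b, Gp1ba, Gp1bb, Gp9, Epx, Prg3, Cpa3, Ms4a2 and Cd200r3. Members and lists were chosen with earlier results of these data known. The fit was tested on simulated data. Figures used matplotlib 3.10.9.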

Additional observations from a re-analysis of the deposited data

How the results depend on the processing

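Among 19 alternatives F13a1 was lower in every one and lost its call in 2, a plain test of each probe set (adjusted p = 0.0991) and the authors' p-values after adjustment (0.0584). As reported, 2 member probe sets were called higher and 2 lower, and 6 classical monocyte genes higher and 4 lower. The member counts were 1 higher and 4 lower after quantile normalization and after scaling to 1 median of bright probe sets. They were 1 and 3 when scaled to 1 trimmed mean. After median centring, at a pseudocount of 4, with a filter at the 60th percentile or with an intensity trend they were 2 and 3. In these settings with 3 lower the brighter Irf8 probe set was called lower. The member counts were 0 and 1 at a pseudocount of 1 and with no filter, 1 and 1 at a pseudocount of 64, and 0 and 0 in the plain test. The classical list had 7 lower after quantile normalization and after scaling to 1 median, 1 and 1 at a pseudocount of 1 and in the plain test, 2 lower at a pseudocount of 4 or 64, and 1 lower with no filter or an intensity trend. Leaving out 1 array gave 0 to 1 member probe sets higher and 1 to 3 lower, and 5 to 8 classical genes higher and 2 to 3 lower. Nothing in the labels says that the replicate numbers pair the pools. The correlation of deviations was -0.07, 0.04 and -0.03 for equal numbers 1 to 3. It ran from -0.13 to 0.15 for unequal numbers, so these values cannot settle whether pools were paired. With the replicate block 0 member probe sets were called higher and 3 lower. Over all probe sets, 1320 were called higher and 427 lower as reported (75.6% higher), against 973 and 852 after quantile normalization (53.3%), 1041 and 598 when scaled to 1 trimmed mean (63.5%), 901 and 866 when scaled to 1 median of bright probe sets (51.0%), 110 and 101 at a pseudocount of 1, 801 and 286 at 64, 595 and 246 with no filter, 22 and 26 in the plain test, 201 and 174 by the authors' p-values after adjustment, 938 and 277 without induced 3, and 879 and 302 without control 2. Some uncalled probe sets near background changed sign. After median centring the log2 change was 0.0032 for the second and 0.0041 for the dimmest Ccr2 probe set. By the authors' ratios it was 0.054 for that dimmest probe set, 0.011 for the dimmer one of Cx3cr1 and 0.15 for the third of Csf1r. With 1 array left out it ran from -0.071 to 0.058 and from -0.051 to 0.014 for these Ccr2 probe sets, from -0.088 to 0.012 for the third of Csf1r and from -0.097 to 0.0067 for the dimmer of Irf8. Dimness limits all of these. The causes of the changes were not tested.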
